A study of Mus musculus with 8 samples.

Results

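The clustered histone genes are the mouse genes whose GENCODE M21 symbol starts with Hist1h, Hist2h, Hist3h or Hist4h, and 70 of the 55487 rows of the deposited count table met this rule. The group was chosen because Hist2h3c2, a gene for histone H3, was among the largest rises after uptake of ferroptotic cells, so the contrast between the sample groups is given for its members as a description. Of the 70 genes, 67 are annotated as protein-coding and 3 as pseudogenes (Hist3h2bb-ps, Hist1h2aj and Hist1h2al). They comprise 6 genes for linker histone H1, 20 for H2A, 19 for H2B, 12 for H3 and 13 for H4. The Hist1 cluster on chromosome 13 holds 56 of them, the Hist2 cluster on chromosome 3 holds 10, the Hist3 cluster on chromosome 11 holds 3, and Hist4h4 on chromosome 6 stands alone.

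The study asked how the uptake of cancer cells dying by ferroptosis, an iron-dependent necrosis with lipid peroxidation, changes dendritic cells. Wild-type bone marrow of C57BL/6J mice, female and 6 to 8 weeks old according to the methods, was cultured with GM-CSF at 20 ng/ml for 10 days to give bone marrow-derived dendritic cells (BMDC). The 4 BMDC libraries came from untreated cells, and the 4 BMDC-fer libraries from cells co-cultured for 4 h with Jurkat cells, a human T-cell leukaemia line, that had been killed with the GPX4 inhibitor ML162 (0.5 µM, 14 h). BMDC-fer cells were sorted for carrying the engulfed cargo, whereas sorting is not stated for the untreated cells. The 4 samples per group were collected independently. GM-CSF cultures also contain cells other than dendritic cells, and in bulk RNA fewer cells of a type and less RNA per cell cannot be told apart.

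Histones package DNA into nucleosomes, in which pairs of H2A, H2B, H3 and H4 form the core and H1 sits on the linker DNA. Most clustered histone genes are switched on in S phase, when new DNA needs packaging. Their mRNAs lack introns and normally end without a poly(A) tail, just after a short stem-loop that the stem-loop binding protein SLBP holds. Some of these genes can also give longer, polyadenylated transcripts, for example in cells that have left the cell cycle. The libraries were made from RNA enriched with oligo(dT) beads, which retain polyadenylated transcripts, so the counts below are not a measure of all histone mRNA.

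The stem-loop sites are shown because they mark where the usual histone mRNA ends, and many of the genes with the most counts have annotated transcripts that run far past it. Capitals mark the 16 bases of the stem and loop, and the sequences were read from the GENCODE M21 transcripts (GRCm38).
Hist2h3c2: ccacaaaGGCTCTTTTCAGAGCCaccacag
Hist3h2a: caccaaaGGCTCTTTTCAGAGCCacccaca
Hist1h1c: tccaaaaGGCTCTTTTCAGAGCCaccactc
Hist4h4: ccacaaaGGCCCTTTTCAGGGCCcacaaag
Hist1h4i: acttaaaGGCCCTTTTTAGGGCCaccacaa
Hist1h4m: aactaaaGGCCCTTTTCAGGGCCatc
The first 3 genes, of types H3, H2A and H1, carried the same 16 bases, a form found in 25 members of types H1, H2A, H2B and H3. The 3 H4 genes carried stems that open with GGCCC, and the form of Hist4h4 and Hist1h4m was found in 7 members, all of them H4. In all, 43 of the 67 protein-coding members held the histone stem-loop after the stop codon of their longest transcript (64.2%). Of 21884 other protein-coding genes, 5 held it anywhere in their longest transcript (0.0228%). However, 13 of the 67 members had no annotated sequence after the stop codon, and Hist1h2ah and Hist1h2af had 2 bases and 1 base. These models could not hold the stem-loop there, so 64.2% also reflects the annotation. The annotated transcript ran 377 bases past the stem-loop in Hist2h3c2, 840 in Hist1h1c, 1643 in Hist3h2a, 2445 in Hist4h4 and 330 in Hist1h4i, but only 3 bases in Hist1h4m. Hist1h2bc and Hist2h2be, with 19863 and 2202 counts in total, held no such stem-loop in any annotated transcript.

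A second sequence shows why single copies are hard to count. The following 50 bases lie in the coding sequence of Hist2h3c2 and occur unchanged in 12 of the 12 H3 members.
Shared H3 word: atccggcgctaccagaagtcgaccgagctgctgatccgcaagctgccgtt
Every 50-base word of the coding sequence of Hist2h3c2 (100%) was found in at least one other gene, whereas 5.35% of the words of its 3′ untranslated region (UTR) were shared. Hist2h3c2 (ENSMUSG00000081058) lies on the minus strand at chr3:96238108-96239127 (mm10) and is 1020 bases long in GENCODE M21, of which 423 bases are 3′ UTR. The RefSeq model of the same gene is 649 bases long. Its closest match was Hist2h3c1 with the overlapping gene model Gm20634, and each shared 63.5% of all its words. Whether reads with several matches were dropped, split or counted more than once is not given in the sources used here, so a value for a single copy below is uncertain to the extent that its words are shared.

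Promoter sequence differed by histone type. A RefSeq promoter window (GRCm38.p6, from 250 bases before to 50 after the start) was matched for 62 of the 70 members and searched on both strands for the letters of the CCAAT box (CCAAT), of the TATA box (TATAAA) and of the octamer (ATTTGCAT), none of which contains another. CCAAT was present in 53 of the 62 windows (85.5%) against 37.4% of all 32851 RefSeq promoters, in every H1, H2A, H2B and H3 window, and in 3 of 12 H4 windows. TATAAA was present in 35 windows (56.5%, against 13.6% of all promoters). The octamer, the recognition sequence of POU factors such as the product of Pou2f1, was present in 13 windows (21.0%, against 1.74%), namely in 7 of 18 H2A and 6 of 16 H2B windows. The 250 bases before the start of Hist3h2a (chr11:58954435-58954684, plus strand) are printed because this gene, one of the 2 members called below, held both elements. Capitals mark the octamer and the CCAAT boxes on either strand.
Hist3h2a upstream: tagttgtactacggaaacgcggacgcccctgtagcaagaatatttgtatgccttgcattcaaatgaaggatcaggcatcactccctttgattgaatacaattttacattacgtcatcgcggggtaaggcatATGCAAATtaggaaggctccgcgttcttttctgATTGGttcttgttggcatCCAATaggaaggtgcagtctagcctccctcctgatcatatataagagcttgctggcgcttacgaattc
A match is a description of the letters in this window and not a measured binding site. The windows of some neighbouring H2A and H2B genes overlap, so the same site can count for both genes in the numbers above. An example is Hist1h2ae (chr13:23571171-23571470) and Hist1h2bg (chr13:23571150-23571449).

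Total counts ranged from 39326672 to 50532209 per library. Values are given as CPM, that is counts relative to a library size scaled by the TMM method, and at these depths 3 counts, the most that a count of 0 allows, correspond to 0.0607 to 0.0785 CPM, for counting error only. The libraries stood apart by replicate number. Replicates 1 and 2 resembled each other and so did 3 and 4 in both groups, with a chi-square per gene of 8.97 to 40.3 within these pairs and of 136 to 341 across them. Of the dendritic cell markers, Flt3 was low in BMDC-fer (0.12 to 0.45 CPM) while Itgax lay between 748 and 1407 CPM in all 8 libraries. The summed level of the 8 dendritic cell markers was 6454 to 14710 CPM in BMDC against 3084 to 7240 CPM in BMDC-fer. It came mostly from Cd74 and H2-Ab1. That of 7 macrophage markers was 1720 to 2806 and 2251 to 3457 CPM, and that of 8 neutrophil markers 40.4 to 220 and 14.4 to 39.7 CPM. By edgeR, 2 dendritic cell markers were called lower in BMDC-fer, Flt3 (log2 fold change -4.06) and Irf4 (-1.42). Of the macrophage markers only Adgre1 was called, and it was lower (-0.81), unlike the macrophage sum. Of the neutrophil markers 4 were called lower, S100a9, Ly6g, Elane and Prtn3, beside 5.91% of all tested genes. With the replicate number as a block in the fit, the dendritic cell markers Zbtb46, H2-Ab1, Cd74 and Cd209a were also called lower. So were the neutrophil markers S100a8, Mpo, Camp and Ltf, beside 8.13% of all tested genes. Of the macrophage markers again only Adgre1 was called. The 10 T-cell markers summed to 36.6 to 43.9 CPM in BMDC against 35.7 to 56.8 CPM in BMDC-fer, mostly from Cd28. Of this list 4 genes were tested and 1 was called, Lck, which was lower in BMDC-fer (log2 fold change -1.59, edgeR adjusted p = 0.048). Cd3g ran from 0.260 to 4.40 CPM in BMDC against 0.024 to 0.465 CPM in BMDC-fer (-3.57, edgeR adjusted p = 0.070), Lat reached 9.46 CPM in BMDC replicate 3, Cd3e stayed at 0.15 CPM or less, and Rag1 was at 0 in every library. With the block Cd3g was also called lower. The 3 B-cell markers summed to 0.184 to 1.06 CPM in BMDC against 0.142 to 0.236 CPM in BMDC-fer. The 4 cycling-cell markers summed to 310 to 828 CPM in BMDC against 266 to 655 CPM in BMDC-fer, and were higher in replicates 1 and 2 than in 3 and 4 of each group. The part of these markers in the histone values was not tested.

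Most clustered histone genes had few counts. The mean count over the 8 libraries was under 10 for 33 members, 100 or more for 7 and 1000 or more for 2, Hist1h1c and Hist1h2bc. Of the 70, 36 passed the filter on low counts, 28 had counts but did not pass it, and 6 (Hist1h2aa, Hist2h2aa1, Hist2h2aa2, Hist2h3c1, Hist2h3b and Hist2h2bb) were at 0 in every library. Of those 6, all but Hist1h2aa shared 100% of their words with another gene model that overlaps their exons.

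Of the 36 tested members, 2 were called higher in BMDC-fer, Hist2h3c2 and Hist3h2a, and 0 lower. A gene counted as called where its adjusted p was at most 0.05 and its log2 fold change at least 0.58 in size. Over all 15411 tested genes 9.38% were called, 3.47% higher and 5.91% lower, and since the group was chosen on this contrast nothing is read from its count. The log2 fold changes of the members had a median of 0.12, against 0.00069 for all tested genes, and ran from -0.84 (Hist1h3f) to 2.23 (Hist2h3c2). The values of both groups did not overlap for 5 members, all higher in BMDC-fer (Hist2h3c2, Hist3h2a, Hist2h2be, Hist1h2ae and Hist1h1b). Of all tested genes, 11.3% were higher and 11.6% lower without overlap. In all 4 same-numbered pairs of libraries 11 members were higher and 6 lower, against 22% and 22.2% of all tested genes. With the replicate number as a block the count was 3, through Hist1h4m, beside 13% of all genes called in either direction and 4.85% called higher.

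**Figure D1:**
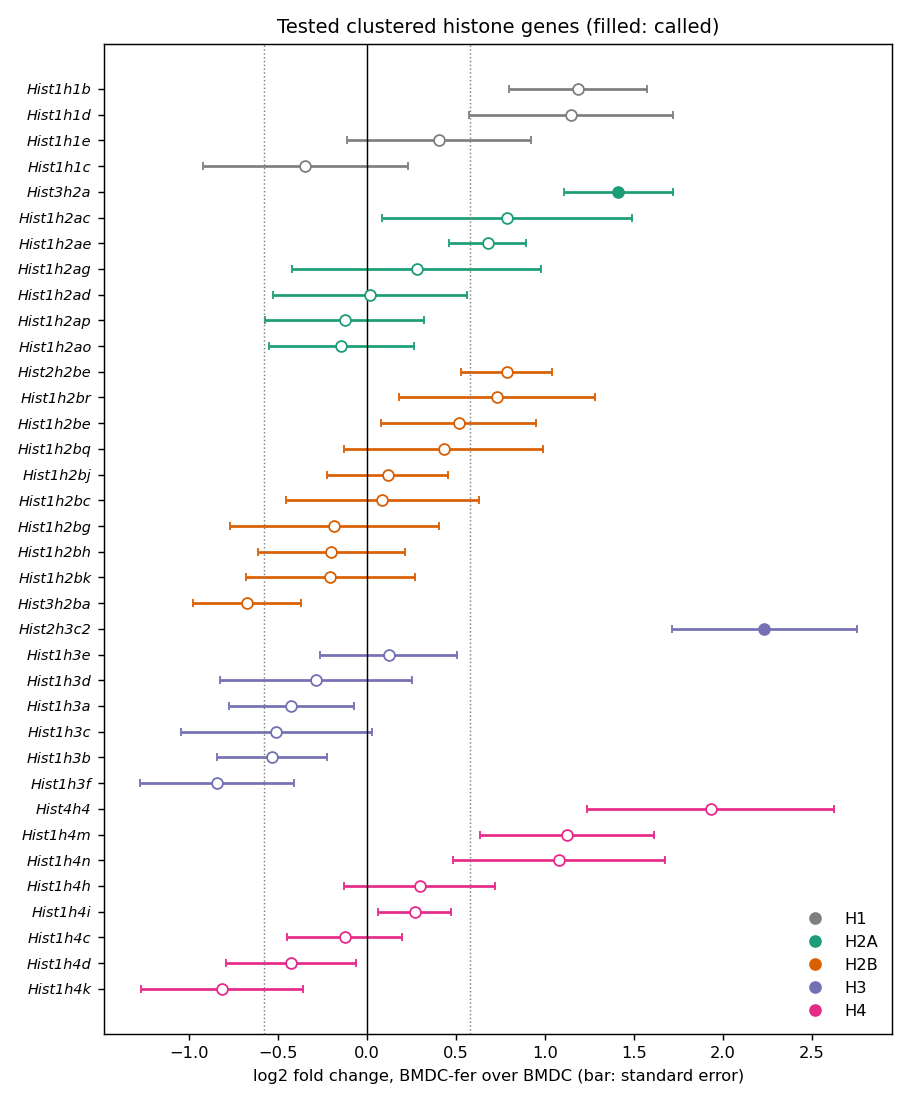
Log2 fold change (x axis, BMDC-fer over BMDC, edgeR) with its standard error for the 36 tested clustered histone genes, grouped and coloured by histone type, with dotted lines at the threshold of 0.58 in either direction. The 2 filled points are the called genes Hist2h3c2 (2.23) and Hist3h2a (1.41), and the other 34 points run from -0.84 (Hist1h3f) to 1.93 (Hist4h4).

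Among the H3 genes, Hist2h3c2 stood away from the rest. It measured 0.899, 0.948, 1.49 and 1.55 CPM in BMDC replicates 1 to 4 and 2.31, 2.59, 9.49 and 8.61 CPM in BMDC-fer replicates 1 to 4. Every BMDC-fer library was above every BMDC library, and BMDC-fer replicates 3 and 4 were far above replicates 1 and 2. The counts behind these values were 39, 45, 63 and 62 in BMDC and 114, 106, 396 and 329 in BMDC-fer. This gave a log2 fold change of 2.23 ± 0.52 (SE, n = 4 per group), with 1.41 within replicates 1 and 2 and 2.59 within replicates 3 and 4. When each library was left out in turn, 2 of 8 fits kept the call, those without BMDC-fer replicate 1 (2.50) or 2 (2.48). It was lost without BMDC replicate 1 (2.12), 2 (2.14), 3 (2.34) or 4 (2.37) and without BMDC-fer replicate 3 (1.89) or 4 (1.98). Hist2h3c2 supplied 18.4% to 29.1% of all H3 member counts in BMDC libraries and 46.7% to 76.6% in BMDC-fer libraries.

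The 11 other H3 genes, which encode the same core histone, summed to 3.99, 3.47, 4.33 and 3.77 CPM in BMDC and to 2.61, 2.96, 2.90 and 3.38 CPM in BMDC-fer. All 4 BMDC-fer sums were below all 4 BMDC sums, the opposite order to Hist2h3c2. Hist1h3f had the lowest log2 fold change of all tested members, -0.84 ± 0.43, from 0.224 to 0.544 CPM in BMDC against 0.105 to 0.311 CPM in BMDC-fer, and the groups overlapped. Hist1h3c was highest in replicates 1 and 2, with 1.29 and 1.05 CPM in BMDC against 0.668 and 0.881 CPM in BMDC-fer, and lay between 0.308 and 0.449 CPM in the other libraries (log2 fold change -0.51 ± 0.54). Hist1h3d showed the reverse order of replicates in BMDC, 0.599 and 0.337 CPM in replicates 1 and 2 against 1.92 and 1.52 CPM in 3 and 4 (-0.29 ± 0.54). Hist1h3e lay between 0.283 and 0.785 CPM throughout (0.12 ± 0.38). None of these 4 genes was called.

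**Figure D2:**
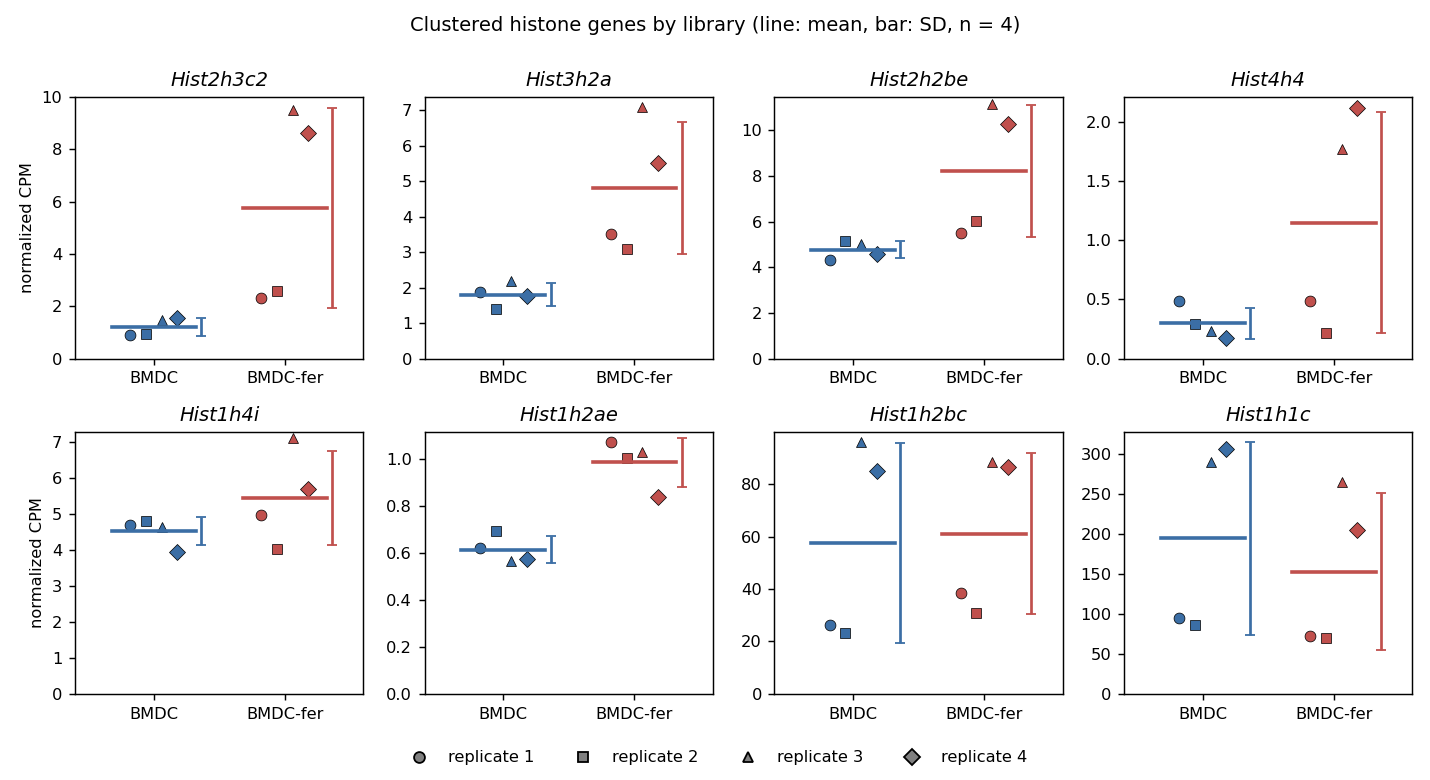
Normalized CPM (y axis, from 0) of 8 clustered histone genes in each library, by group, with a marker for each replicate number, a line at the mean and a bar for the SD (n = 4). Hist2h3c2, Hist3h2a, Hist2h2be and Hist1h2ae are higher in every BMDC-fer library, Hist4h4 is high in BMDC-fer replicates 3 and 4 only, and Hist1h1c and Hist1h2bc separate by replicate number in both groups.

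Among the H2A genes, Hist3h2a was called. It measured 1.87, 1.39, 2.18 and 1.77 CPM in BMDC against 3.52, 3.08, 7.09 and 5.50 CPM in BMDC-fer, so the groups did not overlap. The log2 fold change was 1.41 ± 0.31 (SE, n = 4 per group), with 1.03 within replicates 1 and 2 and 1.68 within replicates 3 and 4. The call was lost without BMDC replicate 4 (1.41), BMDC-fer replicate 3 (1.17) or BMDC-fer replicate 4 (1.35) and kept in the other 5 fits. Hist3h2a lies at chr11:58954685-58956830 on the plus strand, and 31.5% of its words were shared with Trim17, a gene on the same strand whose exons overlap it. The shared words included 100% of those in the coding sequence of Hist3h2a and 13.0% of those in its 3′ UTR. Reads in that overlap cannot be told apart between Hist3h2a and Trim17, and another gene model, Gm44313, overlaps Hist3h2a on the other strand.

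Hist1h2ae was the member nearest to the call from outside. It measured 0.622, 0.695, 0.568 and 0.574 CPM in BMDC against 1.07, 1.00, 1.03 and 0.838 CPM in BMDC-fer (log2 fold change 0.68 ± 0.22), with 276 counts in total and little difference between replicates. The log2 fold changes of Hist1h2ae within replicates 1 and 2 (0.66) and within 3 and 4 (0.72) were close. Hist1h2ac was higher in replicates 3 and 4 of both groups, from 0.105 to 0.757 CPM in BMDC against 0.294 to 1.17 CPM in BMDC-fer (0.78 ± 0.70). Hist1h2ag (0.28 ± 0.70) and Hist1h2ao (-0.15 ± 0.41), with 78.9% and 93.5% of words shared, stayed under 1 CPM in every library and their groups overlapped. The 20 H2A genes together summed to 4.88, 4.61, 6.58 and 5.36 CPM in BMDC against 8.07, 7.71, 11.3 and 9.08 CPM in BMDC-fer. The H2A sum was thus 1.65, 1.67, 1.71 and 1.69 times as high in BMDC-fer in the 4 same-numbered pairs. Without Hist3h2a it was 1.51, 1.44, 0.948 and 0.998 times as high, so the other H2A genes were higher in replicates 1 and 2 and level in 3 and 4.

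Among the H2B genes, Hist1h2bc held 74.2% of the counts. It measured 26.4, 23.0, 96.0 and 84.8 CPM in BMDC against 38.6, 30.7, 88.5 and 86.6 CPM in BMDC-fer, and its log2 fold change was 0.09 ± 0.54. With the replicate block this was 0.22 ± 0.14, and neither fit called it. Replicates 3 and 4 were 3.66-fold above replicates 1 and 2 in BMDC and 2.53-fold above them in BMDC-fer, a wider gap than that between the groups. Hist1h2bg had the same order, 3.18, 2.95, 10.2 and 8.98 CPM in BMDC against 2.43, 2.40, 8.70 and 8.74 CPM in BMDC-fer (-0.18 ± 0.59). However, 49.7% of the words of Hist1h2bg were shared, 45.0% with Hist1h2bc, and Hist1h2bc shared 30.6% of its own. The values of both genes may thus rest in part on the same reads.

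Hist2h2be shared none of its words with another gene in GENCODE M21, while the rest of the genome and human transcripts were not searched. It measured 4.33, 5.14, 5.01 and 4.59 CPM in BMDC against 5.48, 6.02, 11.1 and 10.3 CPM in BMDC-fer. The 4 BMDC libraries were close together and all BMDC-fer libraries lay above them, with most of the distance in replicates 3 and 4. Its log2 fold change was 0.79 ± 0.26, 0.29 within replicates 1 and 2 and 1.17 within replicates 3 and 4, and it was not called, although DESeq2 called it. Hist1h2bq (0.43 ± 0.56) shared 97.3% of its words, chiefly with Hist1h2br, and rested on 705 counts in total. Hist1h2be (0.51 ± 0.43) ran from 0.821 to 2.27 CPM in BMDC against 1.22 to 3.22 CPM in BMDC-fer, and its exons overlap those of the H1 gene Hist1h1e.

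Among the H1 genes, Hist1h1c, the gene for linker histone H1.2, held 98.1% of the counts and was the most abundant member. It measured 94.9, 85.9, 290 and 305 CPM in BMDC against 71.9, 69.3, 265 and 205 CPM in BMDC-fer. BMDC-fer was below BMDC in each of the 4 same-numbered pairs, and the log2 fold change was -0.35 ± 0.57, not called, with -0.35 within replicates 1 and 2 and -0.33 within replicates 3 and 4. With the replicate block it was -0.36 ± 0.11 and also not called. Replicates 3 and 4 were 3.29-fold above replicates 1 and 2 in BMDC and 3.32-fold in BMDC-fer. Only 8.54% of the words of Hist1h1c were shared.

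The other H1 genes lay under 6 CPM. Hist1h1d measured 0.760, 1.18, 1.63 and 1.82 CPM in BMDC against 1.56, 0.808, 5.41 and 4.19 CPM in BMDC-fer, and its log2 fold change was 1.15 ± 0.57, with 0.30 within replicates 1 and 2 and 1.49 within 3 and 4. Its groups overlapped through BMDC-fer replicates 1 and 2. Hist1h1b, an H1 gene with no shared word, measured 0.230, 0.0842, 0.0946 and 0.175 CPM in BMDC against 0.324, 0.269, 0.431 and 0.314 CPM in BMDC-fer (1.19 ± 0.39). The groups did not overlap, but these values rest on 82 counts over all 8 libraries. Hist1h1e ran from 0.253 to 1.05 CPM in BMDC against 0.416 to 1.10 CPM in BMDC-fer (0.41 ± 0.52).

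Among the H4 genes, Hist1h4i held 54.8% of the counts. It measured 4.70, 4.80, 4.64 and 3.94 CPM in BMDC against 4.96, 4.01, 7.12 and 5.68 CPM in BMDC-fer, with a log2 fold change of 0.27 ± 0.21. Hist4h4, at chr6:136801553-136804415 on the minus strand, differed most between replicate numbers. It measured 0.484, 0.295, 0.237 and 0.175 CPM in BMDC against 0.486, 0.220, 1.77 and 2.12 CPM in BMDC-fer, so that BMDC-fer replicates 3 and 4 were well above all BMDC libraries while replicates 1 and 2 lay within their range or at its upper end. Its log2 fold change was 1.93 ± 0.70, made up of -0.10 within replicates 1 and 2 and 3.23 within replicates 3 and 4, and it was not called by edgeR but was called by DESeq2. None of its coding words and 9.29% of its 3′ UTR words were shared.

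Hist1h4m and Hist1h4n shared 89.8% and 85.6% of their words, mostly with each other. Hist1h4m measured 0.184, 0.232, 0.639 and 0.549 CPM in BMDC against 0.546, 0.563, 1.32 and 1.07 CPM in BMDC-fer. Each BMDC-fer library was above its same-numbered BMDC library, while the groups overlapped because replicates 3 and 4 were higher in both. The log2 fold change was 1.12 ± 0.49 and not called, and with the replicate block it was 1.18 and called. Hist1h4n followed with 1.08 ± 0.60, and Hist1h4h lay between 0.211 and 0.798 CPM with 0.30 ± 0.43.

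Summed over all 70 genes, the level was 153, 140, 435 and 434 CPM in BMDC against 148, 136, 430 and 361 CPM in BMDC-fer. BMDC-fer was 0.965, 0.971, 0.988 and 0.832 times BMDC in the 4 pairs, while replicates 3 and 4 were 2.96-fold above replicates 1 and 2 in BMDC and 2.78-fold in BMDC-fer. Hist1h1c and Hist1h2bc gave 83.0% of the 93714 counts, so the sum mostly reports those genes. The other 68 genes summed to 31.9, 31.4, 49.0 and 43.7 CPM in BMDC against 37.4, 36.3, 77.0 and 69.9 CPM in BMDC-fer, higher in each pair. By cluster, the log2 ratio of the group means was -0.18 for Hist1, 1.19 for Hist2, 1.04 for Hist3 and 1.95 for Hist4h4. By type it was -0.32 for H1, 0.75 for H2A, 0.14 for H2B, 0.77 for H3 and 0.39 for H4, and it was -0.39 for H3 without Hist2h3c2. A sum keeps reads that cannot be told apart between its own members, and it was not tested.

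**Figure D3:**
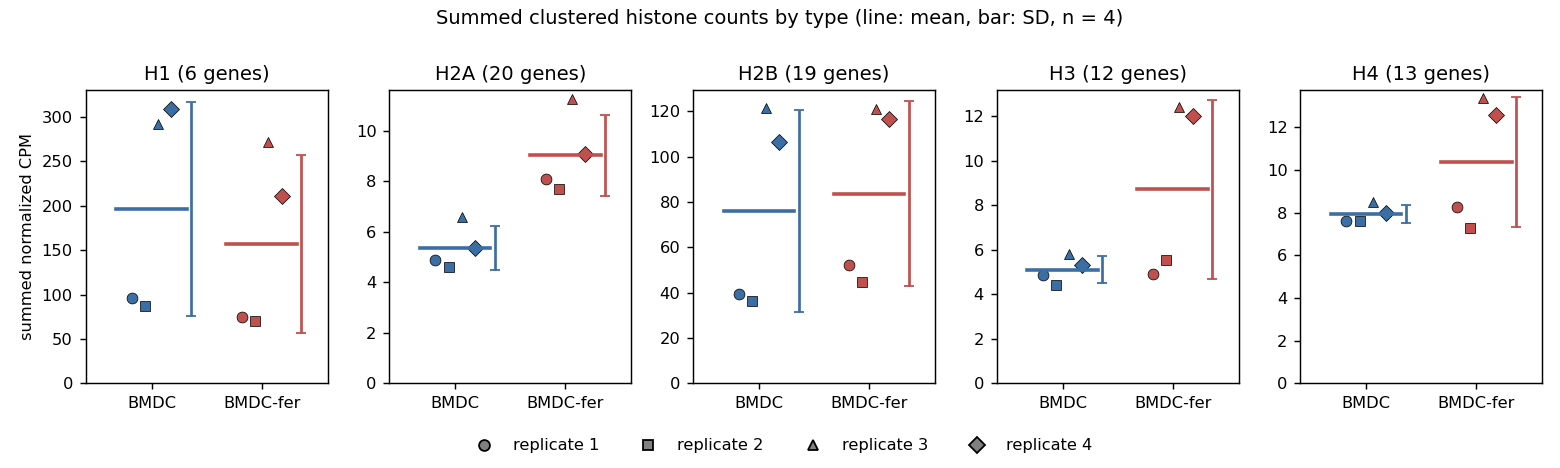
Summed normalized CPM (y axis, from 0, a separate scale in each panel) of the members of each histone type in each library, with a line at the mean and a bar for the SD (n = 4). The H2A sums of the BMDC-fer libraries (7.71 to 11.3 CPM) lie above those of BMDC (4.61 to 6.58 CPM), and the H1 and H2B sums separate replicates 1 and 2 from 3 and 4 in both groups.

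Levels per kilobase of exon depend on the annotated lengths and on how shared reads were counted. On this scale the summed clustered levels in BMDC were 125 ± 77 CPM per kb for H1, 68.7 ± 40.3 for H2B, 12.3 ± 1.3 for H4, 7.28 ± 0.96 for H2A and 6.64 ± 0.42 for H3 (mean and SD, n = 4). In this order the library values of H1 and H2B overlapped, as did those of H2A and H3. The clustered H3 sum was at most 13.1 CPM per kb in any BMDC-fer library, whereas H3f3a, one of the genes for the replacement histone H3.3 whose mRNA is polyadenylated, had 154 to 197 CPM per kb over the 8 libraries.

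The 22 members with an annotated 3′ UTR of over 300 bases gave 94.2% of all member counts, and the other 48 gave 5.78%. Without Hist1h1c and Hist1h2bc, the former set had 10494 counts over 20 genes and the latter 5416. The median of the mean counts was 35.9 in the former and 6.56 in the latter. These counts were not scaled for transcript length or for shared sequence. The sum of those 48 genes was 16.1 ± 4.2 CPM in BMDC against 15.8 ± 3.5 CPM in BMDC-fer (log2 ratio -0.03). Of the 5 tested members whose groups did not overlap, Hist2h3c2, Hist3h2a and Hist2h2be were in the former set and Hist1h2ae and Hist1h1b in the latter. Over 50% of the 50-base words were shared in 36 members, all words in 5 and none in 4 (Hist2h2be, Hist1h1b, Hist1h1t and Hist1h1a). Restricted to the 17 members that shared under 25% of their words, the sum was 206 ± 122 CPM in BMDC against 171 ± 106 CPM in BMDC-fer. Hist1h1c carried that sum. The other 16 of these members summed to 10.3, 10.1, 14.7 and 13.2 CPM in BMDC against 12.2, 11.1, 26.0 and 25.6 CPM in BMDC-fer, higher in each pair. This restriction leaves out Hist2h3c2 and Hist3h2a.

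**Figure D4:**
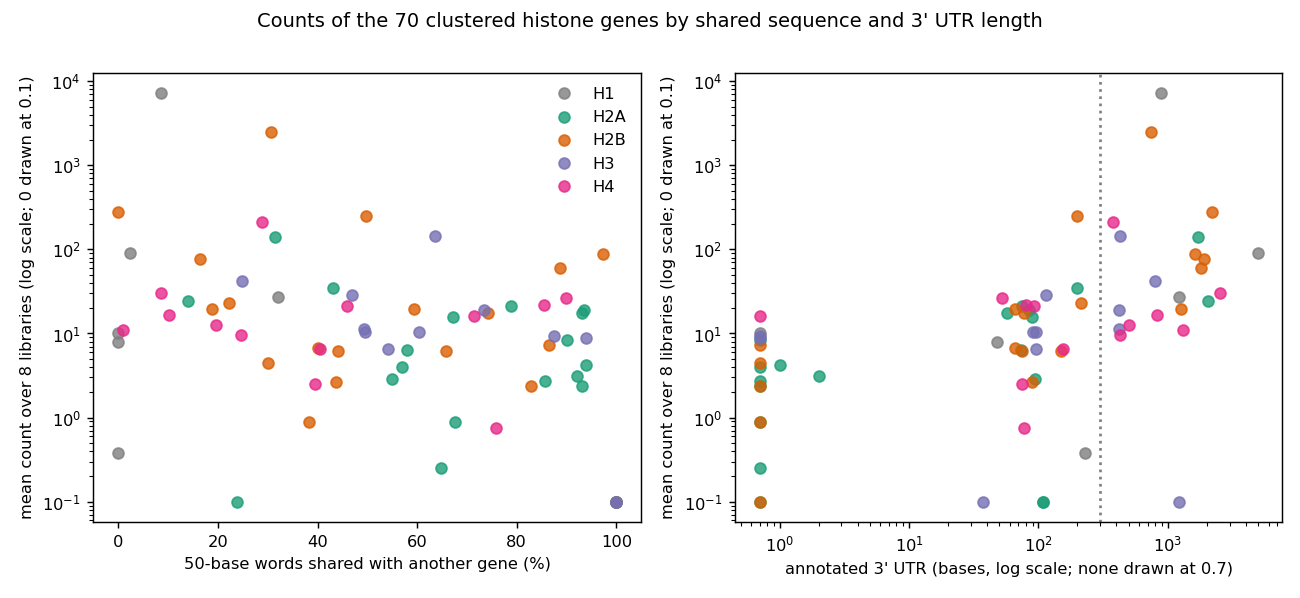
Mean count over the 8 libraries (y axis, log scale, 0 drawn at 0.1) of each of the 70 members against the percentage of its 50-base words found in another gene (left) and against the length of its annotated 3′ UTR (right, log scale, none drawn at 0.7, dotted line at 300 bases), coloured by histone type. The 5 members that share 100% of their words are at 0, and the 2 members over 1000 lie to the right of the dotted line.

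The replicate numbers split the contrast within the group. The median log2 fold change was 0.29 within replicates 1 and 2 over the 36 tested members, and 0.04 within replicates 3 and 4 over 35 of them, since Hist1h3b did not pass the filter there. In fits of 2 against 2 libraries, 3 of 37 members that passed the filter were called within replicates 1 and 2, all higher, beside 19.4% of all genes tested there. Within replicates 3 and 4 it was 13 of 39 members, 11 higher and 2 lower (Hist1h2ap and Hist1h4d), beside 35.7% of all genes. The 13 included Hist2h4, which did not pass the filter with all 8 libraries. Hist2h3c2, Hist3h2a and Hist1h4m were called in both fits. Hist1h2ap was among the members that differed in sign, with a log2 fold change of 0.71 within replicates 1 and 2 and -1.35 within 3 and 4. These pairs were formed after the values were seen, and the difference between them was not tested.

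**Figure D5:**
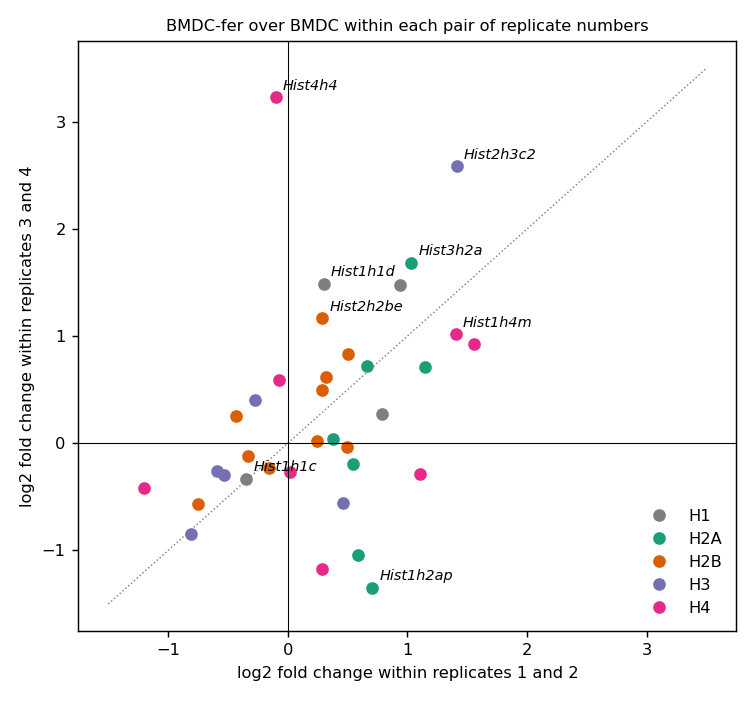
Log2 fold change (BMDC-fer over BMDC) within replicates 3 and 4 (y axis) against that within replicates 1 and 2 (x axis) for the tested clustered histone genes, coloured by histone type, with a dotted line of equality. Hist2h3c2 (1.41 and 2.59) and Hist3h2a (1.03 and 1.68) are positive in both, and Hist4h4 lies near 0 on the x axis (-0.10) and at 3.23 on the y axis.

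The replacement histone genes lie outside the clusters, are used throughout the cell cycle and mostly have polyadenylated mRNA. Of 20 genes with a row, 12 were tested, and 0 were higher and 3 lower in BMDC-fer (edgeR quasi-likelihood test with Benjamini-Hochberg adjustment), beside 3.47% of all tested genes higher and 5.91% lower. With the replicate block 4 were lower, through H1fx. H2afv, a gene of the H2A.Z type, fell by 0.90 on the log2 scale, with 32.1 to 38.2 CPM in BMDC against 13.6 to 24.5 CPM in BMDC-fer (adjusted p = 0.018). H2afy, the gene for macroH2A1, fell by 0.65 (adjusted p = 0.030), and H2afz fell by 0.59 (adjusted p = 0.046). The groups did not overlap for these 3 genes. The number called was 2 without BMDC replicate 2 or BMDC-fer replicate 1, 1 without BMDC replicate 1, 3 or 4, and 0 without BMDC-fer replicate 3 or 4. H2afv kept its call in 6 of the 8 fits, H2afy in 2 and H2afz in 1. The most abundant genes of the list, H3f3b (870 and 719 CPM as group means, log2 fold change -0.27, adjusted p = 0.52) and H3f3a (648 and 590 CPM, -0.14, adjusted p = 0.46), did not pass the test.

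Genes that make and process histone mRNA were taken as a list of 19. In BMDC-fer 0 were higher and 2 lower, beside 3.47% and 5.91% of all tested genes. Npat, the coactivator that switches on the clustered histone genes, measured 19.9, 18.5, 22.9 and 23.5 CPM in BMDC against 9.45, 11.3, 10.9 and 9.42 CPM in BMDC-fer (log2 fold change -1.05 ± 0.13, edgeR adjusted p = 0.0040). Pou2f1, which encodes the octamer-binding factor OCT1, measured 13.8 to 17.1 CPM in BMDC against 8.60, 8.81, 8.84 and 8.80 CPM in BMDC-fer (-0.79 ± 0.12, edgeR adjusted p = 0.0075). Both were called with any single library left out. Slbp, which encodes the stem-loop binding protein, had 42.7 to 71.2 CPM in BMDC against 41.8 to 50.8 CPM in BMDC-fer (-0.27, edgeR adjusted p = 0.34). The most abundant of the list, Srrt (0.09, edgeR adjusted p = 0.76) and Sympk (0.10, edgeR adjusted p = 0.48), did not pass the test.

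Histone chaperones carry histones to chromatin, and of 20 tested 1 was higher and 1 lower, beside 3.47% and 5.91% of all tested genes. With the replicate block 2 were lower, through Anp32e. Ipo4, an importin that brings H3 and H4 into the nucleus, rose from 15.2 to 17.9 CPM in BMDC to 23.6 to 37.1 CPM in BMDC-fer (log2 fold change 0.87 ± 0.15, edgeR adjusted p = 0.011). Atrx, part of the complex that deposits H3.3 at repeats, fell by 0.95 on the log2 scale, from 167 to 189 CPM in BMDC to 79.9 to 101 CPM in BMDC-fer (edgeR adjusted p = 0.0026). Npm1 (-0.02, edgeR adjusted p = 0.95) and Nap1l1 (-0.25, edgeR adjusted p = 0.47), the most abundant, did not pass the test.

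The S phase list holds mostly replication genes that accompany histone synthesis, and its genes Mki67 and Top2a are also among the cycling-cell markers above. This list had 31 tested genes. By edgeR 0 were called and 5 had an unadjusted p under 0.05, beside 29.9% of all tested genes. DESeq2 called 1 (Ccne2), beside 14.7% of all tested genes. The median log2 fold change was -0.53 and 21 of the 31 were lower in BMDC-fer in all 4 pairs, against 22.2% of all tested genes. With the replicate block, 7 were called lower, against 8.13% of all genes: Mcm4, Mcm7, Pola1, Rrm2, Tk1, Ccne2 and Ccna2. The most abundant of the list, Pcna (0.28, edgeR adjusted p = 0.12) and Mki67 (-0.33, edgeR adjusted p = 0.60), did not pass the test. Mcm7 illustrates the order of the libraries, with 105, 100, 41.0 and 40.6 CPM in BMDC against 41.8, 66.8, 27.8 and 26.7 CPM in BMDC-fer. Replicates 1 and 2 were thus the higher ones for Mcm7 in both groups, the reverse of Hist1h1c and Hist1h2bc.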

How the data were processed

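Counts per gene in 4 BMDC and 4 BMDC-fer libraries were used as the authors deposited them. These are raw counts from mRNA enriched with oligo(dT) beads, mapped with HISAT2 to mm10 and counted with featureCounts, according to the submitters' processing notes and the study's methods. The authors counted reads against the mouse and the human genome. How reads that fit both species or several places were assigned, and whether strand was used, is not given in the sources used here, and human counts were not analysed here. All of this bears on histone genes, whose coding sequences are alike between copies and between species.

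GENCODE M21 (GRCm38) named 55141 of the 55487 identifiers. R 4.3.3 and edgeR 4.0.16 were used with TMM scaling, filterByExpr (count minimum 10), the quasi-likelihood test and Benjamini-Hochberg adjustment over 15411 genes. DESeq2 1.42.0 was an alternative, beside other scalings and filters, a replicate block and fits without each library. CPM were computed from the deposited counts. Total counts of 39326672 to 50532209 set the precision, and p-values measure the spread between samples. The tests were tried on simulated data. Words of 50 bases were taken from GENCODE M21 transcripts and promoters from RefSeq.

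Samples were grouped by title. Same-numbered samples of both groups deviated together from their group means (correlations over all genes of 0.445, 0.354, 0.313 and 0.342), so the numbers were taken as pairs under the criterion that each exceeds 0.1. The titles share these numbers but name no shared animal or day. Different numbers within replicates 1 and 2 (0.286 and 0.186) and within 3 and 4 (0.342 and 0.379) also correlated, so the data show 2 sets of replicates and do not single out the same-numbered pairs within them. The main fit compared the groups without a block, so the SE of its fold changes includes the gap between these 2 sets. The replicate block was an alternative to it. The members and lists were chosen with earlier results of these data known. Named were Hist2h3c2, per histone type every called member and the 5 most abundant tested members, the extremes of the fold change, the genes nearest to the call, and in other lists the called genes and the 2 most abundant. Hist1h2ap and Mcm7 were named after their values were seen.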

Additional observations from a re-analysis of the deposited data

How the results depend on the processing

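Depth limits most single members, since 33 of 70 had a mean count under 10. Scaling by total counts alone changed the split of all called genes from 534 higher and 911 lower to 300 higher and 1179 lower and the median log2 fold change of all genes from 0.00069 to -0.09. Genes called numbered 1445 in all (9.38% of those tested) and 2261 with DESeq2 (14.7%). They numbered 3062 in replicates 1 and 2 only (19.4%), 5604 in replicates 3 and 4 only (35.7%) and 565 to 1440 without 1 library. Clustered histone genes called were 4 with DESeq2, 13 in replicates 3 and 4 only and 0 to 2 without 1 library. Replacement histone genes called were 6 in replicates 3 and 4 only and 0 to 3 without 1 library. In replicates 3 and 4 only, 7 of 19 processing genes, 4 of 20 chaperone genes and 2 of 31 S phase genes were called. The share of all genes there was 35.7%. In replicates 1 and 2 only, 4 chaperone genes and 14 S phase genes were called, beside 19.4% of all genes. S phase genes called were 1 with DESeq2 and 7 with the replicate block. Without 1 library, 2 processing genes, 2 to 3 chaperone genes and 0 S phase genes were called. The replicate block moved the count of clustered histone genes from 2 to 3 through Hist1h4m (1.18) and changed no call of another named member. The causes were not tested.

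Some uncalled members changed sign. Leaving out 1 library moved Hist1h2ag between -0.029 and 0.65, Hist1h2ao between -0.34 and 0.13, Hist1h2bc between -0.17 and 0.45, Hist1h2bg between -0.48 and 0.15, Hist1h3d between -0.58 and 0.14 and Hist1h3e between -0.23 and 0.31. In replicates 1 and 2 only the log2 fold change was 0.58 for Hist1h2ao, 0.46 for Hist1h3d, -0.28 for Hist1h3e, -0.074 for Hist1h4i and -0.10 for Hist4h4, and in replicates 3 and 4 only it was -0.034 for Hist1h2bc and -0.28 for Hist1h4h. The log2 ratio of the total histone sum lay between -0.43 and 0.15 without 1 library. Over all settings of the named members, 353 values kept their direction and call, 21 changed sign, 11 became called and 9 lost the call. Calling on the adjusted p alone, an alternative chosen after seeing the data, gave 2 clustered histone genes.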

Other observations

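The gene model Gm20634 overlaps the exons of Hist2h3c1 on chromosome 3 and shares the 617 words that Hist2h3c2 shares with it. Its counts were 7, 12, 14 and 16 in BMDC and 18, 14, 105 and 59 in BMDC-fer, so that replicates 3 and 4 of BMDC-fer were highest, as for Hist2h3c2. The log2 fold change of Gm20634 was 2.05 ± 0.69 and it was not called by edgeR (adjusted p = 0.086), while Hist2h3c1 itself was at 0 in every library. Gm20634 was named after its values were seen.

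The RefSeq models of Hist3h2a and Hist4h4 are 508 and 439 bases long, against 2146 and 2863 bases of exon in GENCODE M21, so a count of either gene depends on the annotation used.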
